A study of Mus musculus with 59 samples.

Results

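Triglyceride synthesis genes were represented by 8 members, Gpam, Agpat2, Lpin1, Lpin2, Lpin3, Dgat1, Dgat2 and Mogat1, of 21774 protein-coding genes in the RefSeq annotation of the mouse genome build GRCm38 (mm10). A peak was assigned to a member when its centre lay inside the gene or when the nearest protein-coding transcription start site (TSS), at most 100 kb away, belonged to it. The rule itself uses no measured value, but the members and lists were chosen with earlier results of these data known. Under this rule 154 of 102931 peaks belonged to the members. Peaks of any list whose centres lay within 200 bp of each other were joined into sites, which left 52 sites at the members among 40474 in all.

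The study mapped the transcriptional repressor BCL6 and the fatty acid receptors PPARα and PPARδ in mouse liver by ChIP-seq, which sequences the DNA that an antibody against a bound protein pulls down. Each factor was mapped in male wild-type C57BL/6 mice that were fed ad libitum or fasted overnight. BCL6 was also mapped in fed male Bcl6 fl/fl mice on the C57BL/6 background, which carry loxP sites around part of Bcl6 and were labelled wild type. Each of the 7 resulting peak lists pooled 3 replicate libraries, so 21 of the 59 libraries of the series stood behind them, and the ages of the mice were not given in the labels.

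The lists ranged from 2399 peaks for PPARδ in fasted livers to 29085 for PPARα in fasted livers. For BCL6, C57BL/6 livers gave 15642 peaks when fed and 9613 when fasted, and fed Bcl6 fl/fl livers gave 17454. The fed lists of PPARα and PPARδ held 21410 and 7328. Every list gave positions only, with no read count, score or replicate value. The spread between mice could therefore not be measured, no test between feeding states could be run, and the tissue label could not be checked against marker genes. A site missing from a list was not called there, which is not the same as unbound, and the part of sequencing depth in the length of a list was not tested. The 95% intervals below are Wilson intervals, cover counting error only and treat neighbouring sites as independent.

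Triglycerides store fatty acids as esters of glycerol, and the liver both stores them and exports them in lipoproteins. Gpam, the mitochondrial acyltransferase GPAT1, puts the initial fatty acid on glycerol-3-phosphate. Agpat2 adds another to make phosphatidic acid, the lipins Lpin1, Lpin2 and Lpin3 remove its phosphate to give diacylglycerol, and Dgat1 and Dgat2 add the last fatty acid. Mogat1 reaches diacylglycerol from monoacylglycerol instead. Lpin1 is also known as a coactivator of PPARα. PPARs bind DNA with RXR at a DR1, a direct repeat of the half-site AGGTCA with 1 base between the copies, and BCL6 binds through its zinc fingers to elements like TTCCTAGAA.

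For each member with a site, the site called in the most lists is shown, since it is where most of the 7 lists met. At Dgat2, site 6 and site 14 were both called in 6 lists, and site 6, the nearer to the TSS, was taken. These 6 windows of 200 bases around the site centre were read from GRCm38 on the plus strand, and sites are numbered in the direction of transcription. Capitals mark each match to a DR1 (AGGTCANAGGTCA, at most 2 mismatches) or to the BCL6 element (TTCCTAGAA, at most 1 mismatch) on either strand.
Gpam site 3, chr19:55139387-55139586: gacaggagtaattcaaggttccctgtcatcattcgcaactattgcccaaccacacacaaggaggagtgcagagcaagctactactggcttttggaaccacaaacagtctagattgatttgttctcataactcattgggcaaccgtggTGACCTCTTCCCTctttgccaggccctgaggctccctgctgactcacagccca
Agpat2 site 4, chr2:26600738-26600937: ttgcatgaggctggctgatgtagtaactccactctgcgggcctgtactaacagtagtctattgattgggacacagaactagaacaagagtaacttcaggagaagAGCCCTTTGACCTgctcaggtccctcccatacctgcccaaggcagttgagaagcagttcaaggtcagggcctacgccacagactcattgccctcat
Lpin1 site 5, chr12:16618539-16618738: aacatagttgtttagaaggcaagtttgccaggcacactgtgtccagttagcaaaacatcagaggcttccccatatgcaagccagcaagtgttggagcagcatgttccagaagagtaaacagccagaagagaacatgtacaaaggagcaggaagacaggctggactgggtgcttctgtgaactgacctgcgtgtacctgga
Lpin2 site 5, chr17:71207392-71207591: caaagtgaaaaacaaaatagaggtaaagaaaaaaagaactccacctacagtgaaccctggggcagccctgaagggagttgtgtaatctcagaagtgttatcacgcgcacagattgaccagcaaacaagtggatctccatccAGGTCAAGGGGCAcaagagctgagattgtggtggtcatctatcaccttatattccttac
Dgat2 site 6, chr7:99191518-99191717: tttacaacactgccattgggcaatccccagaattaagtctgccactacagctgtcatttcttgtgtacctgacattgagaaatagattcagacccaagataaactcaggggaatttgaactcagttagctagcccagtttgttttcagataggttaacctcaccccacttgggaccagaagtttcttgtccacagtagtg
Mogat1 site 1, chr1:78510933-78511132: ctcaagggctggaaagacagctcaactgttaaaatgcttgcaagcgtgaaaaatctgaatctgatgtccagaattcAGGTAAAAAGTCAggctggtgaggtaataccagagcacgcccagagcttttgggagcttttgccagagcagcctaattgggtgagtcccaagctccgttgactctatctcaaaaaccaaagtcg
The windows of Gpam, Agpat2, Lpin2 and Mogat1 each held a DR1 match with 2 mismatches, on the minus strand at Gpam and Agpat2 and on the plus strand at Lpin2 and Mogat1. The windows of Lpin1 and Dgat2 held no match to either element. None of the 6 windows held a BCL6 element within the limit.

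The number of sites differed between the genes. Dgat2 had 15 sites, Gpam 11, Lpin1 9, Lpin2 7, Agpat2 6 and Mogat1 4, whereas Lpin3 and Dgat1 had none. The place of Dgat2 at the head rested on 5 sites inside the gene that lay nearer to the TSS of Uvrag. By the nearest TSS alone Dgat2 had 10 sites, Agpat2 5 and Mogat1 3, and Gpam led with 11. Only 1.20% of protein-coding genes had at least as many sites as Dgat2, 2.64% at least as many as Gpam, and 4.28% at least as many as Lpin1. The median was 6.50 sites per member against 1 over all protein-coding genes. The same 6 of 8 members had a BCL6 site, a PPARα site, a PPARδ site and a site shared by BCL6 and PPARα. A share of 75.0% (95% interval 40.9% to 92.9%) thus compared with 52.6% of all genes for any site, 30.0% for BCL6, 48.2% for PPARα, 20.5% for PPARδ and 25.1% for a shared site.

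The genes differed in how much DNA the rule gave them. The stretch that the rule gave to a gene was 56.8 kb for Dgat2 and 23.4 kb for Agpat2, or 26.4 and 25.7 sites per 100 kb. It was 155 kb for Gpam, 192 kb for Lpin1, 160 kb for Lpin2 and 107 kb for Mogat1, or 7.12, 4.68, 4.39 and 3.74 sites per 100 kb. Dgat2 and Agpat2 had the most sites per 100 kb of the members, with the sites inside Dgat2 that were nearer to Uvrag counted. The stretches of Lpin3 and Dgat1 spanned 29.2 kb and 24.9 kb, close to that of Agpat2, and held none. No value per 100 kb over all genes is given here. The comparisons of site counts with all genes above are therefore not corrected for the length of the stretch.

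By feeding state, the members had more PPARα peaks and fewer PPARδ peaks in fasted than in fed livers, as the whole lists did. PPARα had 29 peaks at the members when fed and 45 when fasted, a ratio of 1.55 beside 1.36 for the whole lists. PPARδ had 13 peaks when fed and 5 when fasted, a ratio of 0.385 beside 0.327. BCL6 had 22 and 19 in C57BL/6 livers, a ratio of 0.864 beside 0.615. These are counts of calls from pooled lists, with no replicate error.

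**Figure D1:**
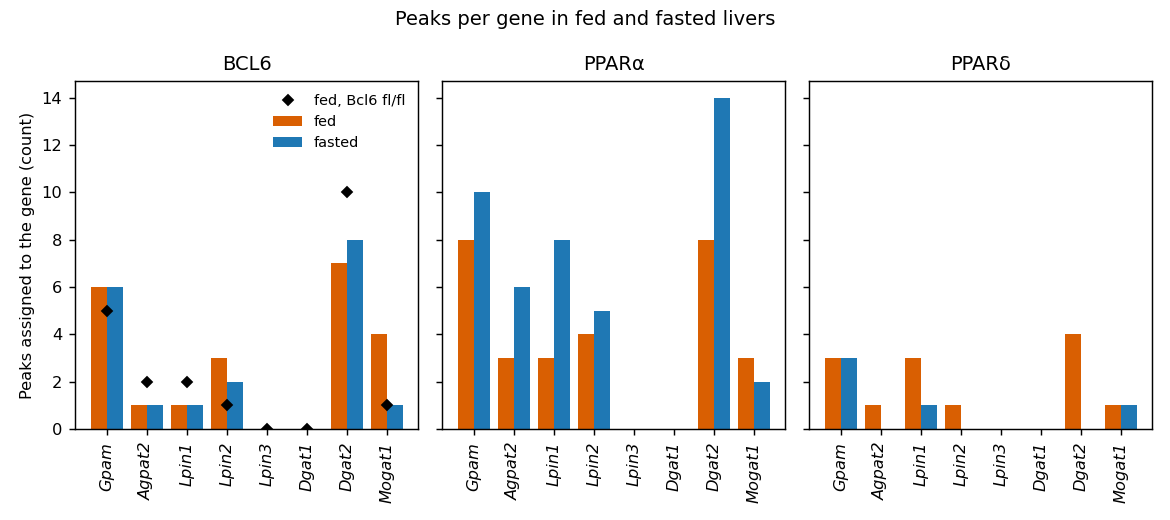
Peaks assigned to each of the 8 genes (count) in fed and fasted C57BL/6 livers, a panel for each factor, with diamonds for BCL6 in fed Bcl6 fl/fl livers. PPARα bars were higher in fasted livers at 5 genes and lower at Mogat1, and the PPARδ bar of Dgat2 went from 4 peaks to 0.

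The 48 PPARα sites at the members divided into 3 of fed livers only, 26 of both states and 19 of fasted livers only. The share in fasted livers only was 39.6% (27% to 53.7%), near the 35.8% over all PPARα sites. The shares in fed livers only, 6.25% (2.15% to 16.8%), and in both states, 54.2% (40.3% to 67.4%), stood beside 12.8% and 51.3%. A group of 15 sites carried no call but PPARα in fasted livers, 28.8% of the members' sites (18.3% to 42.3%) against 22.1% of all sites. They lay at Dgat2, Lpin1, Agpat2, Gpam and Lpin2, and none at Mogat1.

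The 28 BCL6 sites of C57BL/6 livers divided into 9 of fed livers only, 13 of both states and 6 of fasted livers only. The fed-only share of 32.1% (17.9% to 50.7%) compared with 45.3% over all BCL6 sites. The share in both states was 46.4% (29.5% to 64.2%) beside 43.7%. The fasted-only share was 21.4% (10.2% to 39.5%) beside 11.0%. Each of these 3 intervals included the value over all sites.

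PPARδ had 13 sites, 8 in fed livers only and 5 in both states. The shares of 61.5% (35.5% to 82.3%) and 38.5% (17.7% to 64.5%) compared with 70.7% and 18.7% over all PPARδ sites. None of the 13 was called in fasted livers only, which allows a share of up to 23.1% if 3 counts of 13 are taken as the limit of a count of 0 (Wilson upper limit 22.8%), where 10.6% of all PPARδ sites were. The 5 PPARδ sites that were called in both states lay at Gpam, Lpin1 and Mogat1, while all 4 at Dgat2 were called in fed livers only.

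**Figure D2:**
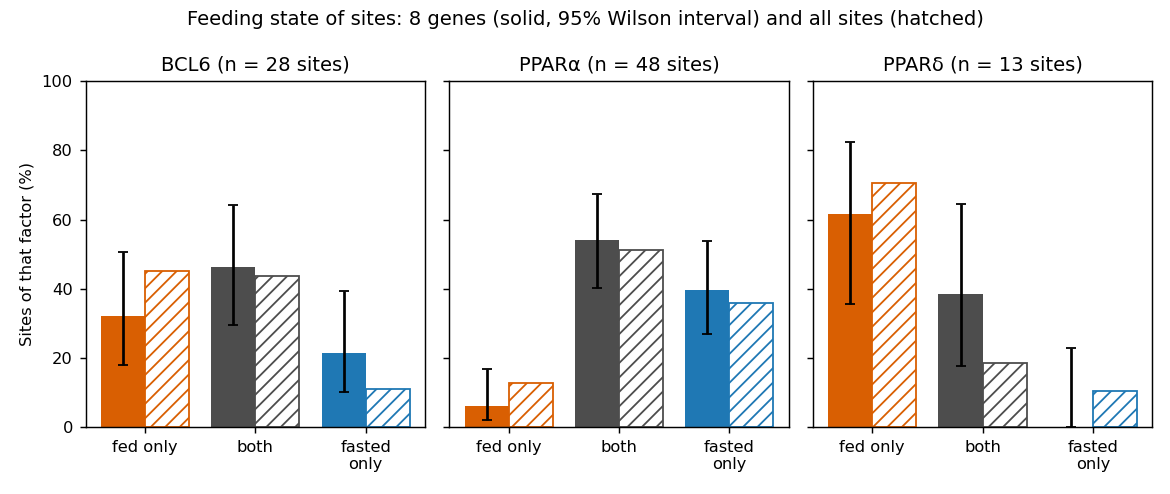
Percent of each factor's sites by state of the liver (fed alone, both, fasted alone), for the 8 genes (solid bars, 95% Wilson intervals) and for all sites of the series (hatched bars). The solid bars rest on 28, 48 and 13 sites. The PPARδ share in both states was 38.5% at the genes and 18.7% over all sites.

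The factors met at many of the same sites. PPARα was called at 25 of the 28 BCL6 sites, 89.3% (72.8% to 96.3%), against 77.6% of all BCL6 sites. BCL6 was called at 25 of the 48 PPARα sites, 52.1% (38.3% to 65.5%), against 40.9%. At these shared sites the nearest BCL6 and PPARα peak centres lay a median of 14.0 bp apart (range 0 to 80 bp), and the median over all 13639 shared sites was also 14.0 bp. Sites of all 3 factors made up 12 of the 52, 23.1% (13.7% to 36.1%), against 11.5% of all sites. Of the 13 PPARδ sites, 12 carried PPARα and the same 12 carried BCL6, 92.3% (66.7% to 98.6%), where 85.1% of all PPARδ sites carried PPARα and 57.8% carried BCL6.

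The PPARα sites were then compared by their own feeding state. BCL6 was called at 22 of the 26 PPARα sites of both states, 84.6% (66.5% to 93.8%), but at 2 of the 19 sites of fasted livers only, 10.5% (2.94% to 31.4%). Of the 3 sites of fed livers only, 1 carried BCL6, at Mogat1. Over all PPARα sites the shares for both states and for fasted livers only were 60.8% and 13.3%. The share for fed livers only over all PPARα sites is not given here. PPARδ was called at 12 of the 26 PPARα sites of both states, 46.2% (28.8% to 64.5%), against 34.2%. Of the 25 shared sites, 12 had both factors in both states, beside 44.0% of all shared sites. Another 10 had PPARα in both states with BCL6 in a single state, which was fed at 5 and fasted at 5. Over all shared sites, these 2 patterns made up 25.1% with BCL6 when fed and 7.21% with BCL6 when fasted. A site with BCL6 in fed livers only and PPARα in fasted livers only was found once, at Lpin2, beside 5.84% of all shared sites.

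The Bcl6 fl/fl livers gave a further fed BCL6 list from other mice. Of the 22 fed C57BL/6 BCL6 peaks at the members, 12 had a Bcl6 fl/fl peak within 200 bp, 54.5% (34.7% to 73.1%), against 69.4% of all fed peaks. By state, it was called at 10 of the 13 sites of both states (76.9%, 49.7% to 91.8%) and at 2 of the 9 fed-only sites (22.2%, 6.32% to 54.7%), where 88.7% and 51.1% of all such sites were called. It was also called at 5 of the 6 sites that C57BL/6 livers gave in fasted mice only (83.3%, 43.6% to 97.0%), beside 49.1% of all fasted-only sites. Of the 19 fasted BCL6 sites, 18 were thus called in fed livers of at least 1 of the mouse lines, 94.7%, and 89.8% of all 9613 fasted BCL6 sites were. This measure sets 2 fed lists against 1 fasted list. In C57BL/6 livers alone, 13 of the 19 were also called when fed, beside 7677 of the 9613. The fed Bcl6 fl/fl list held 21 sites at the members, and 4 of them had no C57BL/6 BCL6 call in either state, 19.0% (7.67% to 40.0%) beside 32.2%. With the Bcl6 fl/fl list in place of the fed C57BL/6 list, the members had 25 BCL6 sites, of which 24.0% were fed only. The share over all sites under this replacement is not given here, so the value stands without a comparison.

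**Figure D3:**
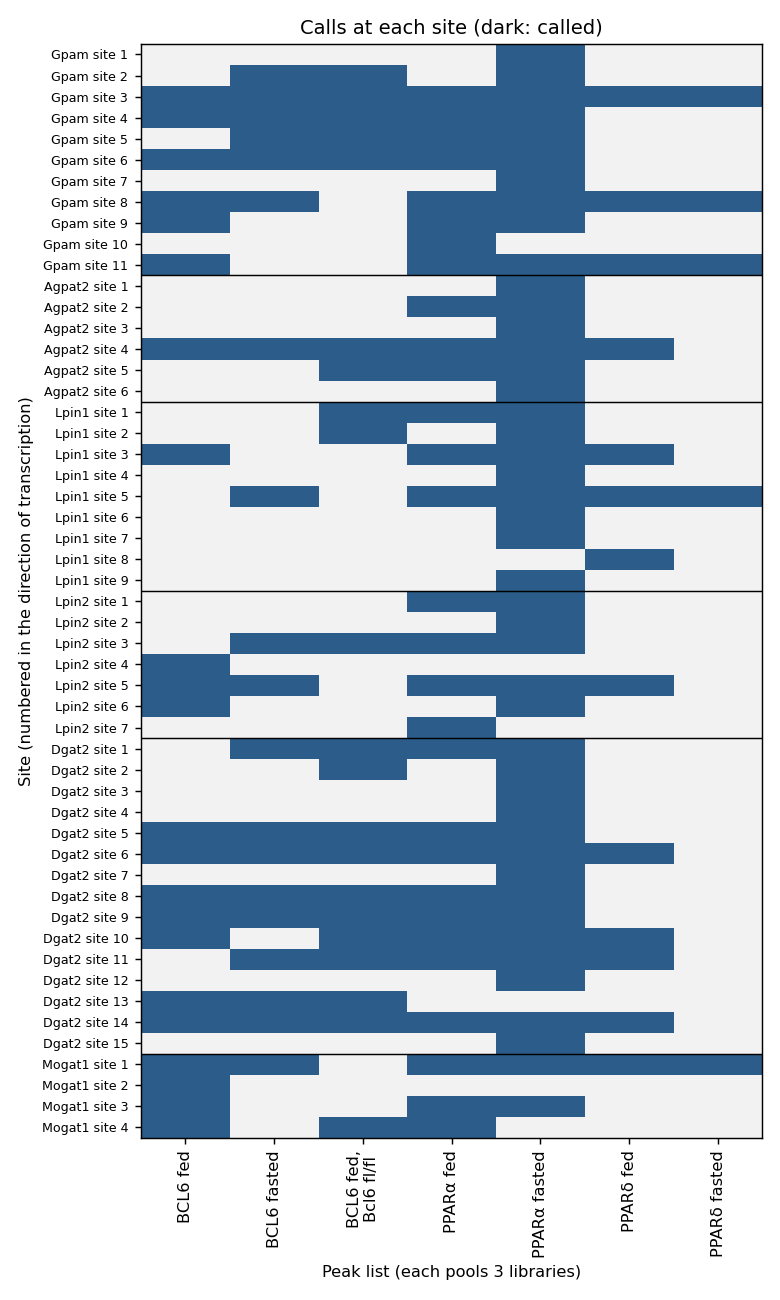
Calls at the 52 sites (rows, numbered in the direction of transcription within each gene) in the 7 peak lists (columns), dark where a peak was called. Gpam site 3 was called in all 7 lists, and 15 rows had a call in the fasted PPARα list alone.

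By gene, Gpam, the acyltransferase of the initial step, carried 11 sites, all of them with PPARα, 8 with BCL6 and 3 with PPARδ. The gene spans chr19:55067635-55127319 on the minus strand. Its sites ran from 26.0 kb upstream of the curated TSS to 31.4 kb downstream in intron 5. Gpam site 3, 12.2 kb upstream at chr19:55139348-55139609, was the only site of the 8 genes called in all 7 lists. Its DR1 match is the one in capitals above. Gpam site 5 lay on the TSS in exon 1 and was called for PPARα in both states, for BCL6 in fasted C57BL/6 livers and for BCL6 in fed Bcl6 fl/fl livers. Gpam site 8 (16.5 kb downstream, intron 1) and Gpam site 11 (intron 5) carried PPARδ in both states, so every PPARδ site of Gpam was called in fed and in fasted livers.

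Agpat2, which makes phosphatidic acid, spans chr2:26593057-26604417 on the minus strand. All 6 of its sites carried PPARα, 3 of them in both states and 3 in the fasted state alone. BCL6 and PPARδ were called in C57BL/6 livers at a single site, Agpat2 site 4 in intron 1, 3.58 kb downstream of the TSS at chr2:26600689-26601003. BCL6 was called there in both states and PPARδ in fed livers. Agpat2 site 6 in intron 4 lay nearer to the TSS of Egfl7, the next gene.

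The lipins differed among themselves. Lpin1, at chr12:16535669-16653903 on the minus strand, had 8 PPARα sites in fasted livers and 3 in fed livers, with 2 BCL6 sites and 3 PPARδ sites. Both BCL6 sites, Lpin1 site 3 and Lpin1 site 5, lay 19.6 kb and 7.67 kb upstream of the curated TSS but inside the gene's span. Both carried PPARα in both states. In C57BL/6 livers BCL6 was called at Lpin1 site 3 when fed and at Lpin1 site 5 when fasted. The fed Bcl6 fl/fl list held neither site. Its 2 peaks at the gene lay at Lpin1 site 1 and Lpin1 site 2, where C57BL/6 livers gave no BCL6 call. The 4 sites downstream of the curated TSS, in introns 1, 11, 11 and 16, were each called in 1 list, which was PPARα in fasted livers at 3 of them and PPARδ in fed livers at Lpin1 site 8. Lpin1 site 8 was the only PPARδ site of the members without PPARα and BCL6.

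Lpin2, a lipin prominent in liver, spans chr17:71183532-71249818 on the plus strand and had 6 PPARα, 4 BCL6 and 1 PPARδ sites. Lpin2 site 2 lay 131 bp upstream of the TSS and was called for PPARα in fasted livers only. The 4 BCL6 sites lay within intron 1, 18.8 to 25.6 kb downstream of that TSS, and each was 106 to 2838 bp from the nearest TSS of the gene. The site 106 bp away, Lpin2 site 4, was called for BCL6 in fed C57BL/6 livers and in no other list. All 3 factors met at Lpin2 site 5, called in 5 lists. The fed Bcl6 fl/fl list was not among them. That list held 1 peak at the gene, at Lpin2 site 3, where C57BL/6 livers gave BCL6 in the fasted state only. Lpin3 (chr2:160880670-160906000, plus strand) had no site, and the nearest to it lay 9153 bp away inside Zhx3, with calls of all 3 factors.

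Dgat2, which esterifies diacylglycerol, had 14 PPARα, 9 BCL6 and 4 PPARδ sites at chr7:99153663-99182713 (minus strand) and upstream of it. PPARα was called at all 14 in fasted livers and at 8 of them in fed livers. In C57BL/6 livers BCL6 was called at 7 sites when fed and 8 when fasted, and Bcl6 fl/fl livers gave 10 when fed, the most of any member in each list. The sites formed an upstream group of 6, from 8.90 to 26.2 kb before the TSS toward Mogat2, and a group of 9 inside the gene, with 568 bp between the closest neighbours. No site lay in the promoter, and the nearest, Dgat2 site 7, lay in intron 1, 867 bp downstream of the TSS. The 5 sites in introns 4 to 7 lay nearer to the TSS of Uvrag, an autophagy gene downstream, and belonged to Dgat2 only through the gene's span. Dgat1 (chr15:76502012-76512021, minus strand), the other enzyme of this step, had no site. The nearest to it lay 26777 bp away, 16 bp from the TSS of Slc52a2, and was called for PPARα in fasted livers.

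A pair of Dgat2 windows is shown because Dgat2 site 11 held the closest DR1 match of all 52 sites, with 1 mismatch, and Dgat2 site 13 was the only BCL6 site of both states without PPARα. Both were chosen after their values were seen.
Dgat2 site 11, chr7:99161676-99161875: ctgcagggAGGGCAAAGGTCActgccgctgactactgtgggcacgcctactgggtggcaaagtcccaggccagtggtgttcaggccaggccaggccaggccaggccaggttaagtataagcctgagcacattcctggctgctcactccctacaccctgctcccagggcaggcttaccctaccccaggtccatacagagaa
Dgat2 site 13, chr7:99157538-99157737: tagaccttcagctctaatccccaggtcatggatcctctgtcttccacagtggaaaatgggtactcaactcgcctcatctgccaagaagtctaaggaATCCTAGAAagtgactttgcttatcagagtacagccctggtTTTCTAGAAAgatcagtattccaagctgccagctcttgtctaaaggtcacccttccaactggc
The capitals of Dgat2 site 11 mark the DR1 match, on the plus strand and 86 bp from the site centre, at a site called for PPARα in both states, for PPARδ in fed livers, and for BCL6 in fasted C57BL/6 and fed Bcl6 fl/fl livers. Those of Dgat2 site 13 mark a BCL6 element with 1 mismatch at the site centre and, 41 to 42 bp away, overlapping matches on the plus and the minus strand, also with 1 mismatch each. BCL6 was called there in all 3 of its lists.

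Mogat1, which acylates monoacylglycerol, was the only member with fewer PPARα peaks in fasted than in fed livers, 3 when fed and 2 when fasted, and its BCL6 peaks in C57BL/6 livers numbered 4 and 1. Mogat1 site 1, at chr1:78510909-78511210 and 27 bp upstream of the TSS, was called for all 3 factors in both states, and the centres of a BCL6 and a PPARα peak coincided there. The fed Bcl6 fl/fl list held no peak at this site. The other sites, 27.5, 57.3 and 76.1 kb downstream, lay beyond the longest curated transcript but inside the gene's span. In C57BL/6 livers BCL6 was called at all 3 in the fed state only. Mogat1 site 4 lay nearer to the TSSs of Acsl3 and Utp14b.

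By position, 28 of the 52 sites lay in introns of the longest curated transcript, 1 in an exon and 15 upstream of the genes. A further 8 lay beyond that transcript but inside the gene's span, and other curated transcripts were not looked at for them. These location counts have no share over all sites beside them. The rule also gives a gene every site inside its span. Promoters, from 1000 bp upstream to 100 bp downstream of any TSS, held 4 sites, at Gpam, Lpin2 and Mogat1, or 7.69% (3.03% to 18.2%) against 13.4% of all sites.

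By sequence, 9 of the 52 windows of 200 bp held a DR1, 17.3% (9.38% to 29.7%), against 13.1% of all sites and 2.37% of 26458 windows spaced evenly over the genome. All 9 were PPARα sites, 18.8% (10.2% to 31.9%) of the 48 beside 14.0%. Of the 13 PPARδ sites, 5 held one, 38.5% (17.7% to 64.5%), beside 21.0%. The BCL6 element was found at 3 sites, 5.77% (1.98% to 15.6%), against 10.9% of all sites and 7.07% of the evenly spaced windows. All 3 were BCL6 sites, Dgat2 site 5, Dgat2 site 13 and Lpin1 site 3, or 10.7% (3.71% to 27.2%) of the 28 beside 15.3%. Dgat2 site 5 held both elements. A match describes the letters in the window and does not show that the factor bound through them.

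Another 11 genes, of the wider glycerolipid pathway and not only of triglyceride synthesis, were listed. Of these, 8 had a site, 5 a BCL6 site, 8 a PPARα site, 6 a PPARδ site and 5 a shared site. Their median was 4.00 sites. Plpp3, a lipid phosphate phosphatase of the plasma membrane, had the most, 13 sites with 8 of BCL6, 12 of PPARα and 7 of PPARδ. Gpat2, Agpat5 and Plpp2 had none. Gpat4, the microsomal enzyme for the same step as Gpam, had 9 sites, of which 4 were shared by BCL6 and PPARα, where 8 of the 11 at Gpam were shared. Mogat2, the neighbour of Dgat2, had 6.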

How the data were processed

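ChIP-seq of BCL6, PPARα and PPARδ in mouse liver was used here as 7 deposited peak lists, each from 3 pooled replicate libraries. Per the labels and the methods, the authors used Bowtie for alignment to mm10, called peaks with HOMER against input and kept those that DESeq2 found enriched over input in the single libraries. The deposited values are peak positions in bp, of 1 width per list, with no count or score. The depth per library is therefore unknown here. No peak ran past a chromosome end of GRCm38.p6, whose genome and RefSeq annotation (84748 mRNAs, predicted ones included) were used.

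Centres within 200 bp were joined over all 7 lists. A BCL6 site had a C57BL/6 call, a shared site also a PPARα call, and the Bcl6 fl/fl list was read separately. Named genes were the 8 members, 11 other pathway genes as counts with those of the most and the fewest sites, and neighbours that a site lay in or nearer to or that bounded a gene. Gpat4 and Mogat2 were added after their values were seen. The members and lists were chosen with earlier results of these data known. Sequences and positions came from GRCm38. Genome windows for the element shares were spaced every 100 kb and replaced the random windows planned, and percentages over all sites include the members' sites. Joining and the element search were tested on simulated data. Assignment was checked only at the first base of each gene's span in the annotation. That base lies inside the gene, so the nearest-TSS and distance parts of the rule were not tested. Python 3.11.15, NumPy 2.4.6, SciPy 1.17.1, pysam 0.24.0 and Matplotlib 3.10.9 were used. Libraries other than these 21 were not used here. The alternatives were other joining distances, reaches, TSS sets, promoter bounds and element limits, and the Bcl6 fl/fl list in place of the fed C57BL/6 list. Those with curated transcripts only and with sites joined without the Bcl6 fl/fl list were chosen after seeing the data.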

Additional observations from a re-analysis of the deposited data

How the results depend on the processing

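Of 102 recomputed values under 17 alternative settings, 97 stayed within 1.5 times the count or within the 95% interval of the share given in the report, and 5 did not. Promoters taken from 5000 bp upstream to 1000 bp downstream held 14 sites in place of 4. With 1 mismatch fewer, the share of sites with a DR1 was 1.92% and that with a BCL6 element 0, and in windows of 50 bp the shares were 7.69% and 1.92%. These 5 values cover the members' sites alone. They do not show whether the comparisons with all sites hold under these settings. With curated transcripts only, the members had 49 sites, and with the nearest TSS alone 45, and Gpam then had more sites (11) than Dgat2 (10). Stricter peak thresholds and leaving out a replicate were not run, since the lists hold no scores and pool the replicates. No paired analysis was possible because the pooled lists carry no replicate numbers and no result comes from a test. The depth per library is unknown here, so what it limits was not tested.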
